A study of Medicago truncatula with 160 samples.

Results

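The plastid genome is the small circular genome that plastids keep from their cyanobacterial ancestor. It encodes core subunits of the photosynthetic complexes, part of the plastid ribosome, subunits of the plastid's own RNA polymerase, and its ribosomal and transfer RNAs, while most plastid proteins are encoded in the nucleus. Root nodules hold plastids that do not photosynthesise. Plastid messengers mostly lack the long poly(A) tails of nuclear messengers, so an mRNA kit that selects tails recovers them in part only.

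The table of nodule counts held 120 rows of the *Medicago truncatula* plastid genome, chosen by the start of their identifier (MtrunA17_CPg), out of 49928 *M. truncatula* rows and 56121 rows in all. Of the 120 plastid rows, 9 are described here by a name and 111 are not, and the reference table used here matched 0 of the identifiers, so gene lengths and sequences were not used and levels are not compared between genes. Nodule RNA came from greenhouse plants of 2 host lines, A17 and DZA, each inoculated with 1 of 20 natural strains of *Sinorhizobium meliloti* (*Ensifer meliloti* in the labels), a bacterium that fixes nitrogen inside nodules. Each host and strain had 4 plants and each plant gave 1 library, 160 in all. Plants of a group were separate, each group was a single host line with a single strain, and no group without bacteria was analysed here. The reference genome is that of A17, so a host difference and a difference in how well reads match the reference cannot be told apart in these data. The kit of the labels selects mRNA and keeps the strand. Ribosomal and other noncoding RNA was also in the transcript sets used for counting, so shares of counts are not shares of mRNA alone.

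Libraries held between 28474905 and 75617864 counts, of which between 2282942 and 58578353 were *M. truncatula* counts. The *S. meliloti* share of all counts had a median of 29.1% and reached from 3.68% to 96.3%. The library of A17, strain 216, plant 3110 had the highest *S. meliloti* share and the fewest *M. truncatula* counts, and the main A17 results are also given without it. In 2 libraries (A17 strain 89 plant 3514 and DZA strain 182 plant 3406) the *S. meliloti* genes matched another strain. Their correlation with it was higher than with the labelled strain by more than 0.05. Smaller margins were not counted. By such margins some A17 libraries of strains 282 and 283 matched each other's strain, as did some of 182 and 89, so the check does not separate these pairs. A17 strain 724B plant 3246 matched strain 278 (r = 0.69 against 0.67 for its own). Among 9 nodule marker genes the summed level was between 58.8 and 2286 CPM (counts scaled to a total of 1000000 *M. truncatula* counts), above 0 in every library. The 3 chlorophyll a-b binding protein genes taken as markers of green tissue summed to a median of 1.56 CPM in A17 and 0.69 CPM in DZA, with a highest value of 13.75 CPM, so defining markers of green tissue were at or near 0.

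Of the 120 rows, 71 were above 0 in all 160 libraries, 4 were at 0 in all of them, and 60 had at least 10 counts in every library. The 109 rows that reached 10 counts in 4 or more libraries entered the tests over both hosts, and 11 did not pass. Counts were concentrated in few rows. The 2 largest rows held 35.1% of all plastid counts and the 10 largest held 55.3%. The largest, CPg0492381, held 21.5%, and the next, CPg0492331, held 13.6%. Neither is paired with a name in the sources used here. Of the named genes, *petB*, which encodes the cytochrome b6 subunit of the complex between the photosystems, held the largest share with 2.49%.

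The plastid share of *M. truncatula* counts was higher in A17 than in DZA. In the 80 A17 libraries it was lowest at 0.677%, had a median of 0.971% and was highest at 3.15%. In the 80 DZA libraries it was lowest at 0.4997%, had a median of 0.790% and was highest at 1.39%. The hosts overlapped, and 76 A17 and 63 DZA libraries lay in the range that both hosts covered. The mean over strains was 0.995% ± 0.127 in A17 and 0.826% ± 0.0851 in DZA (SD of strain means, n = 20 strains), a difference of 0.169 ± 0.0385 percentage points (SE). A17 was higher with 17 of 20 strains (two-sided permutation of hosts within strains, p = 4e-05, adjusted p = 6e-05 over 3 shares). Without plant 3110 the difference was 0.140 percentage points (permutation p = 4e-05). When the 10 largest rows outside the plastid genome were taken out of the denominator, the difference was 0.199 percentage points and no longer passed (permutation p = 0.0938).

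The host difference lay in the 119 rows other than the largest. Their summed share averaged 0.768% in A17 and 0.535% in DZA, a difference of 0.233 ± 0.0445 percentage points (SE, n = 20 strains), and A17 was higher with 19 of 20 strains (permutation p = 1e-05, the smallest these resamples can give). Without plant 3110 the difference was 0.204 percentage points (permutation p = 1e-05). The largest row averaged 0.227% in A17 and 0.291% in DZA, and this difference of −0.0637 ± 0.0332 percentage points did not pass (permutation p = 0.0719). Leaving out the plants of the lowest number in every host and strain, which include plant 3110, gave −0.109 percentage points for that row (permutation p = 0.017).

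**Figure D1:**
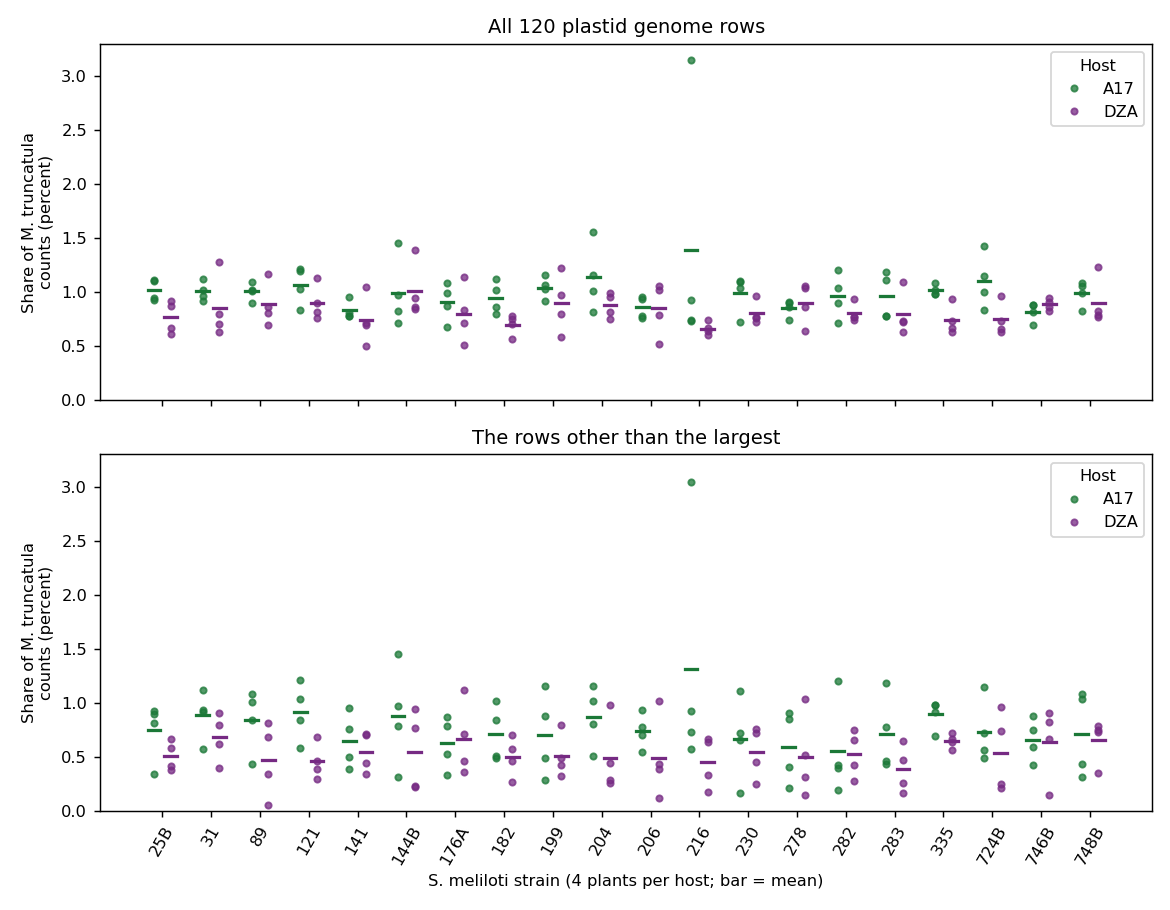
Share of *M. truncatula* counts in percent for all 120 plastid genome rows (upper panel) and for the 119 rows other than the largest (lower panel), with 1 point per plant, 4 plants per host and strain, and a bar at the mean. A17 means lie above DZA means for 17 of 20 strains in the upper panel and 19 of 20 in the lower, the points of the hosts overlap for all but 3 strains in the upper and for all 20 in the lower, and 1 library of A17 with strain 216 stands at 3.15%.

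No difference in the plastid share between strains passed the test over all libraries. In A17 the lowest strain mean was 0.818% ± 0.0868 (SD, n = 4) for strain 746B and the highest was 1.39% ± 1.18 for strain 216, whose other 3 plants had between 0.732% and 0.927%. In DZA the lowest was 0.662% ± 0.05885 for strain 216 and the highest 1.01% ± 0.255 for strain 144B. The ranges of 4 plants overlapped for 179 of 190 pairs of strains in A17 and for 182 of 190 in DZA. The F ratio between strains was 0.66 in A17 (permutation p = 0.926) and 0.811 in DZA (permutation p = 0.685), and for the 6 tests over both hosts and the 3 shares the adjusted p was 0.994. In A17 the ratio was 1.203 without plant 3110 (permutation p = 0.283) and 1.87 without the plants of the lowest number (permutation p = 0.0467, not adjusted).

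CPg0492381 did not follow the other rows. In A17 its level was lowest at 7.13 CPM, had a median of 622 CPM and was highest at 10583 CPM, and in DZA the values were 6.32, 2624 and 11662 CPM. The highest library was 1484 times the lowest in A17 and 1844 times in DZA. The values fell into a low and a high set in both hosts. In A17, 29 libraries were under 100 CPM, 38 were over 1000 CPM and 13 lay between, and in DZA the numbers were 23, 46 and 11. Both sets occurred among plants of the same strain, with at least 1 library under 100 CPM and 1 over 1000 CPM for 20 of 20 strains in A17 and 16 of 20 in DZA.

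The level of this row moved with the make-up of the whole library. The 10 largest rows outside the plastid genome took between 18.4% and 83.3% of *M. truncatula* counts. When the 80 libraries of a host were divided into 4 bins of 20 by that share, the median of CPg0492381 was 30.8, 51.4, 2828 and 6036 CPM from the lowest to the highest bin in A17, and 29.8, 544, 4213 and 6696 CPM in DZA. The other 119 rows went the opposite way, with medians of 10120, 8646, 6133 and 3987 CPM in A17 and 7885, 6403, 4263 and 2545 CPM in DZA. The median *S. meliloti* share of the bins rose as well, from 12.4% to 49.5% in A17 and from 12.5% to 52.8% in DZA. All these shares come from the same libraries and have counts in common, and the part of library make-up in the levels was not tested.

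**Figure D2:**
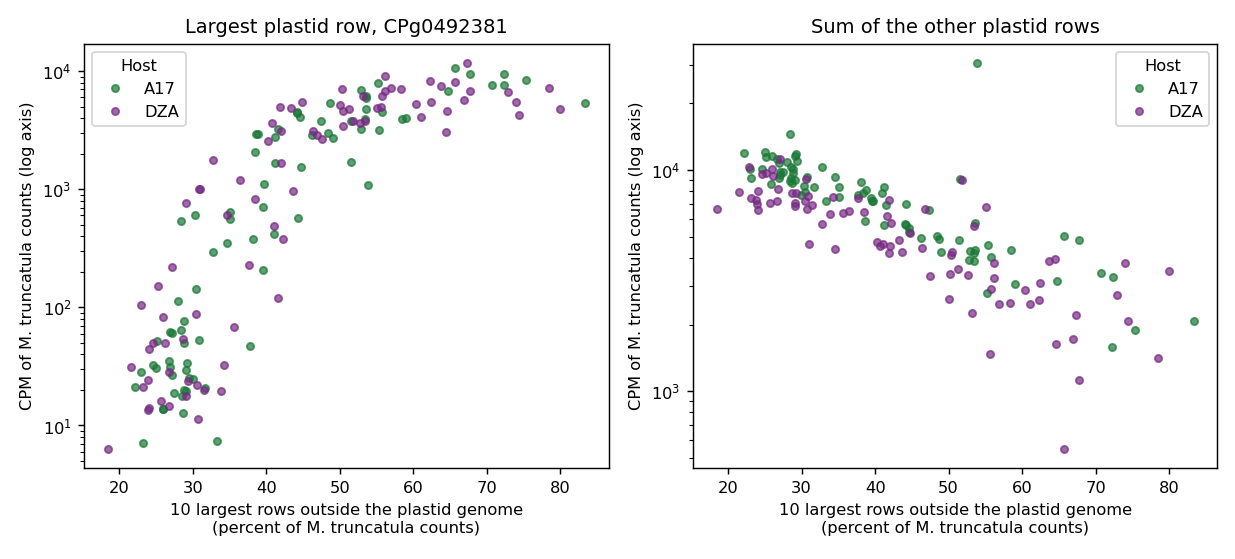
Level of the largest plastid row (left) and summed level of the other 119 plastid rows (right), both in CPM on a log axis, against the percent of *M. truncatula* counts in the 10 largest rows outside the plastid genome, with 1 point per library and 80 libraries per host. The largest row rises from under 100 CPM to over 1000 CPM as that percent grows, while the other rows fall, in both hosts.

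The levels of most of the remaining plastid rows were correlated across libraries. Among the 87 others with a median above 5 CPM, the median Spearman rho over all pairs was 0.77 across the 80 A17 libraries and 0.78 across the 80 DZA libraries. The median rho of a row with the others was above 0.5 for 82 of the 87 rows in A17 and 84 in DZA, and was lowest for CPg0492361, at −0.01 in A17 and 0.19 in DZA. CPg0492381 had a negative rho with 85 of the 87 in A17 (median −0.74) and with 86 of the 87 in DZA (median −0.72). Values of a library share their total and its make-up, so these are descriptions. The A17 medians were 0.77 and −0.76 when plant 3110 was left out. After each row was divided by the sum of the 119 rows in its library, the median rho over all pairs was 0.06 in A17 and 0.05 in DZA. Dividing rows by their own sum takes out what they share, so a lower rho is partly built into this step. Among 57 pairs of rows with consecutive identifier numbers the median rho after this division was 0.20 in A17 and 0.19 in DZA.

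Of the 9 named genes, 7 encode proteins of the plastid ribosome, 4 in the small subunit (*rps12*, *rps14*, *rps15*, *rps19*) and 3 in the large subunit (*rpl2*, *rpl14*, *rpl33*). The other two are *petB* and *cemA*, the latter for a protein of the plastid envelope. *petB* was between 30.3 and 442 CPM in A17 with a median of 265 CPM, and between 16.0 and 406 CPM in DZA with a median of 165 CPM. Its A17 levels were shifted upwards, with wide overlap between hosts. In the edgeR fit over all genes it was 1.41-fold higher in A17 (log2 difference 0.50 ± 0.06 SE, adjusted p = 6.13e-12). The mean of strain means was 239.8 CPM in A17 and 159.8 CPM in DZA, and A17 was higher with 20 of 20 strains (permutation p = 1e-05).

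*rps15* had the largest host difference of the 9 named genes in the edgeR fit. It was lowest at 0.53 CPM, had a median of 9.25 CPM and was highest at 96.4 CPM in A17, against 0.174, 4.24 and 14.4 CPM in DZA. The highest A17 value, in plant 3110, lay far above the range of DZA, and 66 of 80 A17 libraries lay in the range that both hosts covered. The fold was 1.95 in favour of A17 (log2 difference 0.96 ± 0.13, edgeR adjusted p = 2.47e-10).

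*rps12*, for a protein near the decoding centre of the small subunit, had a median of 41.9 CPM in A17 (7.03 to 87.7) and 27.8 CPM in DZA (2.41 to 73.1). It was 1.26-fold higher in A17 (edgeR adjusted p = 4.83e-05). *rpl14* had a median of 33.5 CPM in A17 (5.02 to 106) and 22.9 CPM in DZA (1.81 to 64.0), 1.25-fold higher in A17 (edgeR adjusted p = 0.000217). The hosts overlapped for both genes. Without plant 3110 the log2 differences of *petB*, *rps15*, *rps12* and *rpl14* were 0.51, 0.93, 0.36 and 0.33 (edgeR adjusted p at most 8.87e-05). *rps19* was 1.35-fold higher in A17 (edgeR adjusted p = 0.00192), *rpl33* 1.31-fold (edgeR adjusted p = 0.00531) and *cemA* 1.21-fold (edgeR adjusted p = 0.0251). These last 3 calls were lost when the plants of the highest number were left out (edgeR adjusted p = 0.0508, 0.135 and 0.205), and that of *cemA* also with scaling by totals (edgeR adjusted p = 0.0771) and without the plants of the third-lowest number (edgeR adjusted p = 0.0686). *rps14* and *rpl2* did not pass, with log2 differences of 0.27 ± 0.14 and 0.31 ± 0.22. *rps14* passed with totals and with the *S. meliloti* share as a covariate (edgeR adjusted p = 0.0497 and 0.012).

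*rpl2*, for a protein at the peptidyl transferase centre, was listed at 0 in 2 A17 and 11 DZA libraries although 71 plastid rows were above 0 in every library. Its median was 37.4 CPM in A17 and 25.0 CPM in DZA. limma gave a log2 difference of 1.13 (adjusted p = 0.00877).

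**Figure D3:**
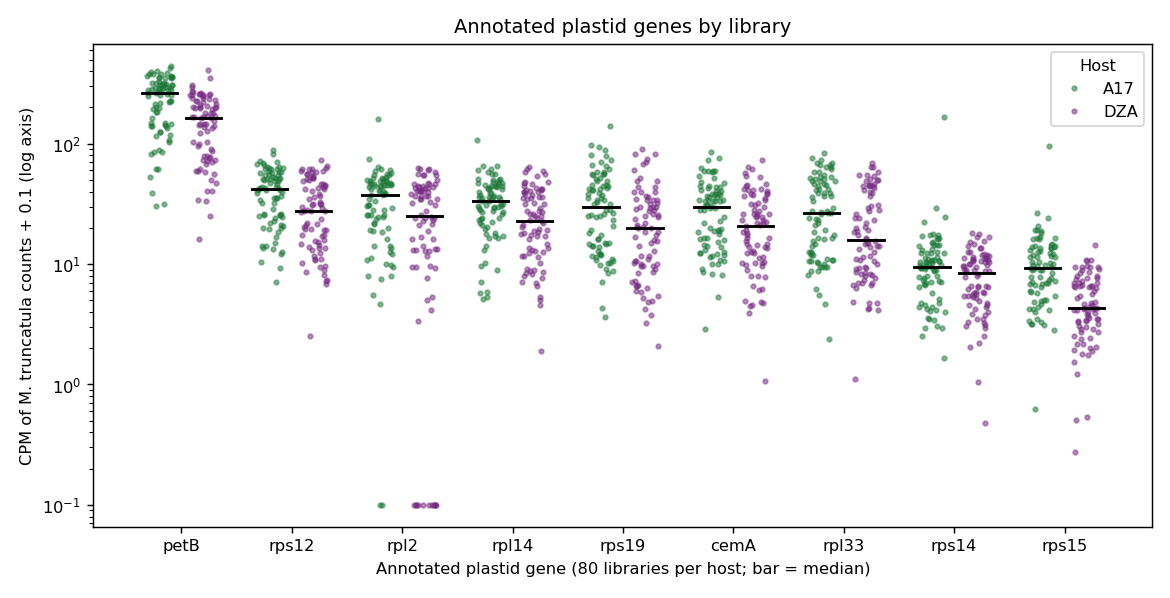
Level of the 9 named plastid genes in each library, in CPM plus 0.1 on a log axis, with 80 libraries per host and a bar at the median. A17 medians lie above DZA medians for each of the 9 genes and the points of the hosts overlap, and the 13 points of *rpl2* at the bottom are libraries where it is listed at 0.

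Over all plastid rows, 63 of the 109 tested were higher in A17, against 26.1% of all 37672 genes tested, and 0 were higher in DZA, against 27.1% (edgeR quasi-likelihood test, adjusted p under 0.05). At an unadjusted p under 0.05 the tests held 70 plastid rows, or 64.2% against 57.7% of all genes. By DESeq2 the calls were 68 higher in A17, against 27.7% of all genes, and 1 higher in DZA, against 30.25%. The median log2 difference of the 109 rows was 0.34, and that of all genes was −0.08. The distance between these medians lay between 0.38 and 0.45 under every normalization, filter, tool and set of libraries tried. The called rows were between 1.14-fold and 2.32-fold higher in A17, with a median of 1.36-fold. The 2 with the smallest p were CPg0492981, with medians of 70.7 CPM in A17 and 30.1 CPM in DZA (log2 difference 0.95 ± 0.07, edgeR adjusted p = 3.8e-26), and CPg0492891, with medians of 358 and 146 CPM (log2 difference 0.95 ± 0.08, edgeR adjusted p = 2.04e-21). CPg0492381 was not called (−0.50 ± 0.52, edgeR adjusted p = 0.431). Without plant 3110 the counts were 64 higher in A17, against 27.8% of all genes, and 1 higher in DZA, against 28.1%. That row, CPg0493031, was at 0 in 75 A17 and 71 DZA libraries and had its highest value, 55.2 CPM, in plant 3110.

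**Figure D4:**
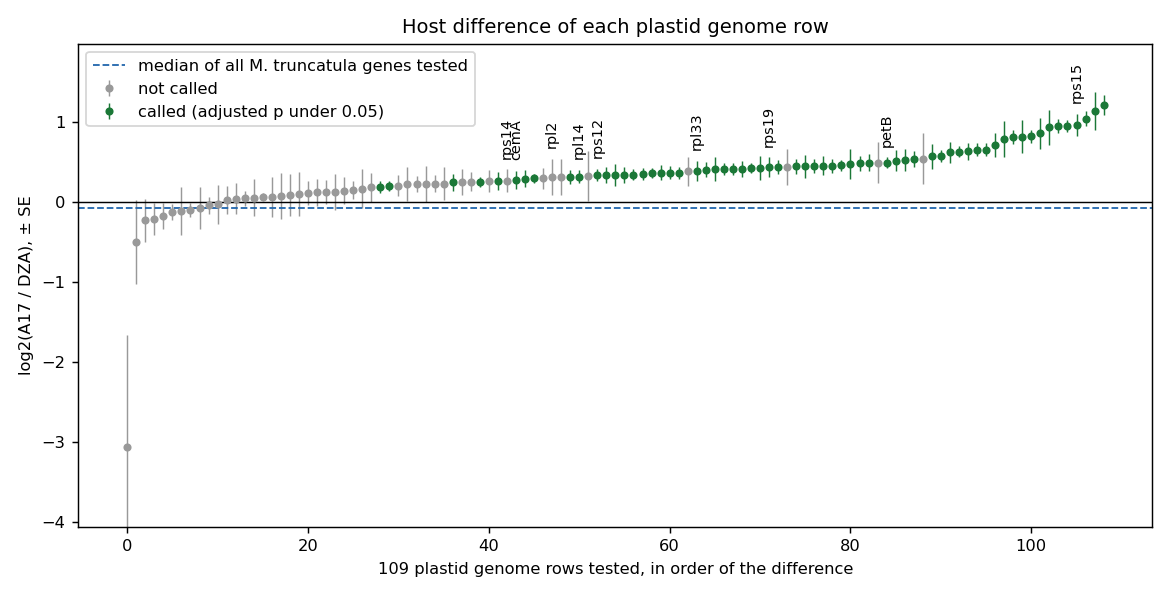
log2 difference between hosts (A17 over DZA) with its standard error for the 109 plastid rows tested, in order of size, with named genes marked. Green points are the 63 rows called higher in A17, no row is called higher in DZA, and the dashed line is the median of all genes tested at −0.08.

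The nuclear photosynthesis genes examined here were 3 for chlorophyll a-b binding proteins and 1 for the cytochrome b6-f complex, all low. Other nuclear genes of the pathway were not surveyed. All 3 chlorophyll a-b binding protein genes were higher in A17 (log2 differences between 0.83 and 1.23, edgeR adjusted p between 0.00243 and 0.0196). They had under 10 counts in 76, 99 and 105 of the 160 libraries, so these differences lie near the floor. The gene of the Rieske iron-sulfur subunit of the cytochrome b6-f complex had a median of 0.056 CPM in A17 and 0 CPM in DZA and was not called. Of the 9 nodule markers, 5 were higher in A17, against 26.1% of all genes, and 2 were higher in DZA, against 27.1%. The mitochondrial genome took 3.04% of *M. truncatula* counts in A17 and 2.78% in DZA (medians). The part of these in the plastid difference was not tested.

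Several plastid genes have nuclear rows with the same annotated name, and counting keeps reads that match more than 1 place, so values of such genes are uncertain. For 6 of the 9 named genes there were 7 such rows. The nuclear row named cytochrome b6 (Chr4g0015871) was at 0 in 80 of 80 A17 libraries, and in DZA it was above 0 in 35 of 80, with at least 1 such library for 19 of 20 strains and a highest level of 55.9 CPM. Where it was above 0 it took a median of 5.35% and at most 26.7% of the counts of both rows. With both rows summed, cytochrome b6 was still higher in A17, by 74.5 ± 11.9 CPM against 79.99 ± 11.6 CPM for the plastid row alone (SE, n = 20 strains, permutation p = 3e-05 for the sum). Nuclear rows named ATP synthase subunit alpha (Chr4g0015651) and DNA-directed RNA polymerase subunit alpha (Chr4g0015901), names that plastid genes of land plants also carry, had medians of 292 and 36.0 CPM in A17 and 188 and 29.0 CPM in DZA. Their Spearman rho with the summed 119 plastid rows was 0.74 and 0.92 in A17 and 0.83 and 0.94 in DZA, over 80 libraries each. They had the highest medians and the highest rho of the 9 nuclear rows listed with such names. Rows named 30S ribosomal protein S3, S4 and S11 were at 0 in most libraries, with rho between −0.33 and 0.07 over both hosts. The rest had rho between 0.21 and 0.72.

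Whether single plastid rows differed between strains was tested within each host. In DZA, 0 of 109 rows were called, against 4.20% of all genes (edgeR quasi-likelihood F test). There 5 rows had an unadjusted p under 0.05, against 12.1% of all genes, limma called 0, against 2.91%, and DESeq2 called 2, against 8.605%. In A17, 1 of 109 rows was called, against 1.63% of all genes. This was CPg0493301 (edgeR adjusted p = 0.0499), which ranged from 0.2 to 107 CPM with its highest value in plant 3110. Without that library no row was called and 12 had an unadjusted p under 0.05, against 7.44% of all genes. With all libraries 21 rows had an unadjusted p under 0.05 in A17, against 7.51% of all genes, DESeq2 called 12 rows, against 3.73%, and limma 0, against 0.132%. None of the 9 named genes was called in either host by edgeR.

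The *S. meliloti* share of a library is a share of counts after mRNA selection, in which ribosomal RNA was still counted. The paper reports that the ribosomal part differed widely between samples, and its part in these shares was not tested. How closely the *S. meliloti* share follows the bacterial RNA of the nodules was not tested. It differed widely between plants of a single strain, and the plastid share was compared with it. In DZA the plastid share rose weakly with it over 80 libraries (Pearson r = 0.30, permutation p = 0.00601, adjusted p = 0.016 over 8 relations, and Spearman rho = 0.22, permutation p = 0.0471, adjusted p = 0.126). Without the 2 libraries farthest in *S. meliloti* share r was 0.25 (permutation p = 0.0246). In A17 r was 0.35 (permutation p = 0.00361, adjusted p = 0.0144) but rho was −0.02 (permutation p = 0.826), and without plant 3110 r was 0.07 (permutation p = 0.514), which means that 1 library carries the relation. Without the 2 farthest libraries r was −0.01 (permutation p = 0.928). Over the 20 strain means r was 0.35 in DZA (permutation p = 0.128) and 0.25 in A17 (permutation p = 0.299).

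The 119 rows other than the largest fell as the *S. meliloti* share rose. In DZA r was −0.47 and rho −0.57 (permutation p = 1e-05 for both, adjusted p = 8e-05 and 4e-05), and r was −0.54 without the 2 farthest libraries (permutation p = 1e-05). In A17 r was −0.24 (permutation p = 0.0304, adjusted p = 0.0609) and rho −0.70 (permutation p = 1e-05), and r was −0.72 both without plant 3110 and without the 2 farthest libraries (permutation p = 1e-05). Over the 20 strain means r was 0.15 in DZA (permutation p = 0.526) and −0.0025 in A17 (permutation p = 0.992). With the 10 largest outside rows taken out of the denominator, r over libraries was 0.10 in DZA (permutation p = 0.394) and 0.22 in A17 (permutation p = 0.0426). The ranks still fell in A17 with that denominator, with a rho of −0.38 (permutation p = 0.00039) and r = −0.40 without the 2 farthest libraries (permutation p = 0.00025), and in DZA rho was −0.10 (permutation p = 0.363).

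Slopes of single rows were fitted per 10 percentage points of *S. meliloti* share with TMM scaling, which sets levels against the bulk of *M. truncatula* genes. These fits had no term for strain, so variation within strains and between strains was not separated. In DZA, 53 of 109 rows rose, against 35.8% of all genes, and 24 fell, against 28.1%. In A17, 64 rose, against 39.8%, and 16 fell, against 30.2% (edgeR, adjusted p under 0.05). The median slope of the plastid rows was 0.06 in DZA and 0.08 in A17 on the log2 scale, and of all genes 0.02 and 0.03. With scaling by total *M. truncatula* counts only, the median of all genes moved to −0.18 in DZA and −0.20 in A17, and the calls became 15 rising and 69 falling in DZA, against 17.3% and 59.2% of all genes, and 22 rising and 51 falling in A17, against 21.15% and 58.95%. With RLE factors 66 rose and 10 fell in DZA, against 46.6% and 15.9% of all genes, and 86 rose and 5 fell in A17, against 50.9% and 19.2%. With the share of the 10 largest outside rows as a covariate 79 rose and 9 fell in DZA, against 29.2% and 19.7%, and 82 rose and 3 fell in A17, against 27.65% and 18.8%. That covariate and the *S. meliloti* share had a Spearman rho of 0.82 in DZA and 0.88 in A17, so fits with both separate them poorly. Set against the median of all genes, the plastid median was 0.04 above it in DZA and 0.05 in A17 with TMM, and 0.05 and 0.12 above with totals. Without plant 3110 the distance in A17 was 0.0049, and 45 rows rose and 29 fell, against 38.2% and 29.2% of all genes. Without a filter on low counts the plastid median minus that of all genes was −0.05 in DZA and −0.08 in A17.

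Rows differed in their slope. CPg0492381 rose by 0.94 ± 0.17 in DZA (edgeR adjusted p = 2.07e-06) and 1.73 ± 0.17 in A17 (edgeR adjusted p = 1.25e-14). With the share of the 10 largest outside rows as a covariate its slope was −0.08 in DZA (edgeR adjusted p = 0.594) and 0.17 in A17 (edgeR adjusted p = 0.365). Of the other rows the smallest p in both hosts belonged to CPg0492361, which had a median of 13.4 CPM in A17 (5.84 to 507) and 13.3 CPM in DZA (0.806 to 115), with its highest A17 value in plant 3110. It rose by 0.52 ± 0.03 in DZA and 0.62 ± 0.03 in A17 (edgeR adjusted p = 1.49e-24 and 8.37e-28), and by 0.60 in A17 without that plant. CPg0492721 and CPg0492731, next to each other by number, fell in both hosts. Their slopes were −0.27 ± 0.02 and −0.27 ± 0.03 in DZA and −0.22 ± 0.02 and −0.23 ± 0.02 in A17 (edgeR adjusted p at most 4.66e-14). With the covariate the A17 slope of CPg0492731 was −0.07 and no longer passed (edgeR adjusted p = 0.155).

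The ribosomal protein genes did not share a direction. *rps14* rose by 0.19 ± 0.03 in DZA and 0.29 ± 0.03 in A17 (edgeR adjusted p = 1.72e-07 and 1.58e-12), and *rps15* by 0.13 ± 0.03 and 0.16 ± 0.04 (edgeR adjusted p = 0.00078 and 0.00014). With scaling by totals both DZA slopes turned, to −0.03 and −0.09. The A17 slope of *rps15* was 0.07 without plant 3110 and no longer passed (edgeR adjusted p = 0.147). *rpl33* fell by 0.12 in DZA and by 0.08 in A17 (edgeR adjusted p = 0.00102 and 0.0314), but its A17 slope was 0.02 with RLE factors and −0.15 without plant 3110. *rps19*, *rpl14* and *rpl2* fell in DZA with edgeR adjusted p between 0.00845 and 0.0316 and were not called in A17. Without plant 3110 their A17 slopes were −0.14, −0.07 and −0.12 and passed (edgeR adjusted p = 0.000671, 0.00839 and 0.0316). With the 10 largest outside rows as a covariate the DZA slopes of *rps19*, *rpl14* and *rpl33* turned positive. *petB*, *rps12* and *cemA* were not called in either host, with slopes between −0.05 and 0.03. Without plant 3110 the A17 slope of *petB* was −0.06 and passed (edgeR adjusted p = 0.00549), and with RLE factors it was 0.07 (edgeR adjusted p = 0.00184). Of the 9 nodule markers all 9 fell in both hosts, against 28.1% of all genes in DZA and 30.2% in A17. Their median slopes with TMM scaling were −0.19 in DZA and −0.22 in A17.

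**Figure D5:**
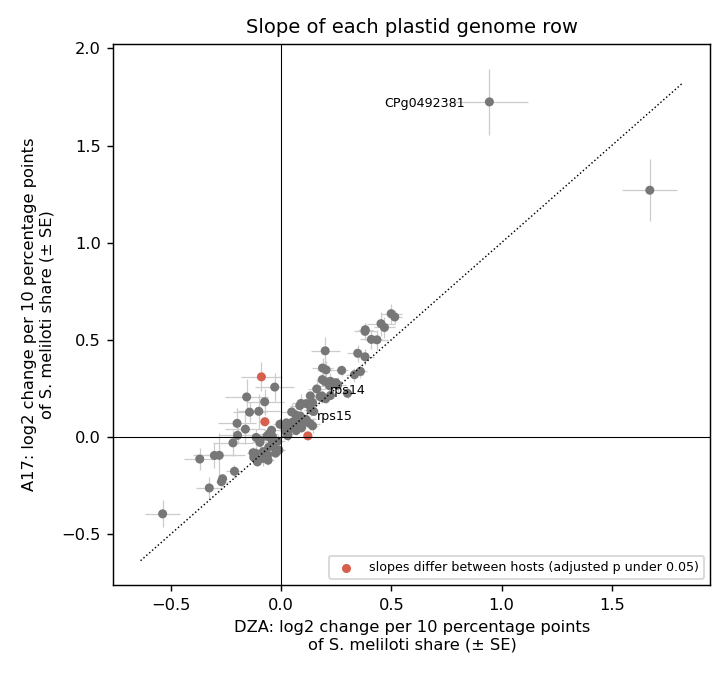
Slope of each of the 109 plastid rows on the *S. meliloti* share, as log2 change per 10 percentage points, in DZA (x axis) and A17 (y axis), with standard errors and a dotted line of equal slopes. Of the 109 rows, 81 lie within 0.1 of the line, CPg0492381 lies at 0.94 in DZA and 1.73 in A17, and the 3 red points are rows whose slopes differ between hosts.

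Of the 77 rows called in DZA and the 80 called in A17, 63 were called in both, of which 49 rose in both, 13 fell in both and 1, CPg0493291, went in opposite directions. Of the genes tested in both hosts 54.7% were called in both, 29.4% rising and 24.4% falling, so the 63 of 109 lie near the share of all genes. Without plant 3110, 59 rows were called in both, against 53.2% of all genes. Of these, 39 rose in both and 19 fell in both. The slope differed between hosts for 3 of 109 rows, against 9.53% of all genes (edgeR test of the interaction). Of these, 2 were steeper upwards in A17 and 1 in DZA. The count was 20 with RLE factors, against 11.45% of all genes, 6 with totals, against 5.38%, and 10 without plant 3110, against 7.24%. The difference for CPg0492381, 0.77 ± 0.29, did not pass (edgeR adjusted p = 0.0691) and passed without plant 3110 (0.87, edgeR adjusted p = 0.0432). None of the 9 named genes was called.

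High values were concentrated in few libraries. Plant 3110 held the highest A17 value of 80 of the 116 plastid rows above 0 in that host, or 69.0%, against 35.4% of all *M. truncatula* rows above 0. Its plastid share of 3.15% (95% Wilson interval 3.13% to 3.17%, which covers counting error only) went with the highest mitochondrial share, 6.21%. In DZA the plant of strain 31 numbered 3359, which had the highest *S. meliloti* share of that host at 87.5%, held the highest value of 28 of 114 rows, or 24.6%, against 10.5% of all rows.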

How the data were processed

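Nodule libraries of 160 plants were analysed. Per the study's methods, trimmed reads were quantified by Salmon (1.4.0) against joint transcript sets, with both genomes as decoys. The sets held coding and noncoding RNA of plant line A17, with its ribosomal RNA, and of a bacterial reference strain. Estimates were summed to genes with a correction for bias. The authors deposited these expected counts (estimated counts) without normalization, and only 0.034% of values above 0 are whole within 1e-06. Host, strain and plant number come from the labels.

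Here CPM is scaled to a total of 1000000 *M. truncatula* counts. Models used rounded counts of genes that reached 10 counts in 4 or more libraries. edgeR (4.0.16) quasi-likelihood models with TMM factors were fitted to all *M. truncatula* genes in R (4.3.3), with strain and host, strain alone, or *S. meliloti* share as terms, and Benjamini-Hochberg adjustment over all genes. DESeq2 (1.42.0), limma (3.58.1), other scalings, no filter, covariates, counts summed per host and strain, and leaving out plants of each rank by number were alternatives. Single shares were tested by 100000 permutations. Models were tested on simulated data. Members and lists were chosen with earlier results of these data known. The named genes were the 9 listed with names, the 2 largest rows, rows called by few, and at most 2 rows per direction with the smallest p in each comparison. The planned naming of 10 largest rows and 5 rows per direction was shortened, since most identifiers have no name. The study's methods give 1 sequencing lane but describe DZA plants only, and the labels name no batch. A batch difference between hosts could therefore not be checked. An item withheld from the text is not reported here.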

Additional observations from a re-analysis of the deposited data

Results flagged for a closer look

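In groups of 4 plants of a host and strain, 1 plant stood far from its other 3 in 3 of 40 groups, where chance flags about 1 in 20. With A17 and strain 216, plant 3110 had a plastid share of 3.15% against 0.732% to 0.927% in the others. With DZA and strain 282, plant 3443 had 0.933% against 0.746% to 0.769%. With DZA and strain 748B, plant 3327 had 1.23% against 0.769% to 0.826%.

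The slope on the *S. meliloti* share differed between hosts for 3 rows without a name. For CPg0492981 the A17 slope minus the DZA slope was −0.14 on the log2 scale per 10 percentage points (edgeR adjusted p = 0.000479), with slopes of 0.0049 in A17 and 0.12 in DZA, and the call was lost with RLE factors (adjusted p = 0.187) and with totals (adjusted p = 0.462). For CPg0493291 it was 0.12 (edgeR adjusted p = 0.0038), and 0.062 without A17 plant 3110 (edgeR adjusted p = 0.241). For CPg0492321 it was 0.37 (edgeR adjusted p = 0.0288), and 0.26 with limma (adjusted p = 0.151). This row had medians of 2.86 CPM in A17 and 1.39 CPM in DZA.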

How the results depend on the processing

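The host difference of the plastid share kept its direction under every alternative and lost its call only without the 10 largest outside rows in the denominator (0.199 percentage points). The relation of the plastid share with the *S. meliloti* share turned to r = −0.47 in DZA and −0.29 in A17 without the 3 largest plastid rows. In A17 it was 0.0746 without plant 3110 and between −0.024 and 0.45 on leaving out plants by rank, and the strain F ratio was between 0.58 and 1.87, passing at the highest value. Without the 10 largest outside rows in the denominator the relation of the other 119 rows was 0.10 in DZA and 0.22 in A17. Strain calls in DZA were 2 with DESeq2, against 8.605% of all genes. In A17 they were 12 with DESeq2 (3.73% of all genes), 16 with RLE factors (2.68%), 3 without mismatched libraries (1.61%) and 7 with totals (1.87%). They were 0 with limma (0.132%), 0 without plant 3110 (1.77%) and 0 with no filter (1.335%). On leaving out plants they were between 0 and 1, against 0.63% to 1.61% of all genes. Interaction calls were 20 with RLE factors (11.45% of all genes), 6 with totals (5.38%) and 10 without plant 3110 (7.24%). On leaving out plants they were between 2 and 12, against 4.43% to 13.36% of all genes.

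Slopes of single rows that turned, in DZA with totals, were −0.0862 for *rps15*, −0.0279 for *rps14* and −0.0662 for CPg0492981. In DZA with the 10 largest rows as covariate they were 0.11 for *rps19*, 0.0674 for *rpl14*, 0.0841 for *rpl33*, −0.0783 for CPg0492381 and 0.0527 for CPg0493291. In A17 *rpl33* was at 0.017 with RLE factors and 0.12 with the covariate. CPg0492321 in A17 was at −0.0186 with limma, −0.0331 with totals and −0.23 with the covariate. CPg0493291 in A17 was at −0.0043 without plant 3110, −0.0601 with totals and between −0.0231 and 0.13 on leaving out plants. Causes were not tested. Leaving out plant 3110, the covariate, all alternatives of the interaction and those of the shares of the largest and the other rows were chosen after seeing the data. The rRNA and tRNA rows could not be set apart by name, so the 3 largest rows were left out in their place. No paired analysis was possible by plant, because plant numbers are not shared between groups. Depth limits rows under 10 counts, and 1 library with 2282942 *M. truncatula* counts.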
